A study of Homo sapiens with 9 samples.

Results

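Genes that build the junctions between epithelial cells, together with genes that regulate the epithelial state or mark its loss, were followed one by one across 9 expression arrays. The list held 39 genes chosen by name: 7 of adherens junctions, 10 of desmosomes, 9 of tight junctions, 4 of gap junctions, the adhesion molecule EPCAM, 4 transcription factors of epithelial-mesenchymal transition (EMT), 3 epithelial regulators and the mesenchymal filament gene VIM. A gene was represented by a probe set that the array annotation gives exactly 1 symbol, and by the brightest one where it had several. Of the 39 genes, 35 had such a probe set, out of 18417 genes in the whole annotation. CTNND1 and OCLN lie only on probe sets with several symbols, and F11R and ESRP1 matched none, so these have no value here. Of the 35, 27 reached a log2 signal of 5 on at least 1 array and were tested. The other 8 (CDH11, EPCAM, PKP1, CLDN4, CGN, MARVELD2, GJB6 and GRHL2) stayed under 5 on all 9 arrays.

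The arrays are labelled as RNA of SK-BR-3, a breast cancer cell line described in the labels as luminal-like. The cells carried the vector pcDNA3.1/V5/His-pTOPO with the cDNA of TFPIα, with that of TFPIβ, or empty, 3 arrays for each. TFPI is tissue factor pathway inhibitor, an anticoagulant protein, and its β form is held at the cell surface by a lipid anchor. All groups, controls included, went through stable transfection and drug selection, and the replicates of a line are separate RNA isolations from it, so that the spread between them is that between isolations of one selected population. Values are RMA signals on the log2 scale, in which a difference of 1 is a 2-fold difference. RMA normalizes the arrays together, and probe sets differ in how well they bind, so each gene is compared with itself across arrays.

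The groups are called by their labels throughout. TFPI had signals of 5.66, 5.81 and 5.51 on the arrays labelled TFPIα, 5.55, 5.79 and 5.81 on those labelled TFPIβ, and 5.81, 6.48 and 6.45 on those labelled empty vector (log2 fold change -0.59, SE 0.19, adjusted p = 0.335 for TFPIα, and -0.53, SE 0.19, adjusted p = 1.00 for TFPIβ, limma). According to the study, the inserted cDNA lacked the untranslated regions that array probes for TFPI recognise. The study also reports TFPI as upregulated in both lines when PLIER, an algorithm that drops probes of low signal, was used. The values here are RMA signals, so that result was not checked, and the RMA signal of this probe set is no check of the labels.

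The labelled cell type was set against listed markers, each read against the filter at 5 and not against other probe sets. Of 12 luminal markers, 5 lay at 5 or more on all 9 arrays and 2 under 5 on all. KRT18, a luminal keratin gene, gave 9.49 to 10.76 and XBP1, a luminal transcription factor gene, 8.85 to 9.78, while KRT8, the keratin partner of KRT18, gave 5.68 to 6.20. ERBB2, which SK-BR-3 is known to carry in many copies, gave 5.63 to 6.24. Of 10 basal markers, the 6 with a value lay above 5 on all 9 arrays, KRT5, a basal keratin gene, at 12.40 to 12.83. Their mean log2 signal was 8.93 to 9.75 in the TFPIα-labelled, 8.76 to 10.06 in the TFPIβ-labelled and 9.61 to 10.06 in the empty vector arrays, and that of the luminal markers 5.65 to 5.80 in the TFPIα-labelled, 5.60 to 5.94 in the TFPIβ-labelled and 5.66 to 5.92 in the empty vector arrays.

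Of 9 fibroblast markers, 5 lay under 5 on all arrays, with a mean over the list of 4.93 to 5.42 in the TFPIα-labelled, 5.10 to 5.28 in the TFPIβ-labelled and 5.14 to 5.58 in the empty vector arrays. At 5 or more on all 9 arrays lay 2 of the list. COL1A1, a collagen gene, gave 6.18 to 7.72. DCN, the decorin gene of connective tissue, was the other. It gave 9.85, 9.68 and 10.32 on the TFPIα-labelled arrays, 9.66, 9.48 and 9.64 on the TFPIβ-labelled arrays, and 10.52, 11.14 and 10.91 on the empty vector arrays (log2 fold change -0.90, SE 0.20, unadjusted p = 0.0017, adjusted p = 0.335 for TFPIα; -1.26, SE 0.20, unadjusted p = 0.000188, adjusted p = 0.665 for TFPIβ, limma). Both TFPI groups thus lay below all empty vector arrays, and neither difference passed the adjusted threshold. Of 5 endothelial markers 4 lay under 5 on all arrays, and of 5 leukocyte markers 3, PTPRC among them, while CD14 gave 6.46 to 9.12. The part of these markers in the members' values was not tested. KRT18, XBP1, COL1A1, DCN, CD14 and CD68 were picked out after their values were seen.

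Epithelial cells hold together through several junctions. In adherens junctions, classical cadherins bind across the gap between cells and are tied to actin through catenins. In desmosomes, desmogleins and desmocollins do the same and are tied to keratin filaments through plakoglobin, plakophilins and desmoplakin. Tight junctions, built on claudins, seal the space between cells, and gap junctions, built on connexins, join their interiors. In EMT, transcription factors such as SNAI2, ZEB1, ZEB2 and TWIST1 lower the expression of junction genes, and cells gain vimentin and a motile form. GRHL2, ESRP1 and ESRP2 act on the epithelial side, GRHL2 as a transcription factor and the ESRP proteins as splicing regulators. Luminal breast lines usually express EPCAM, GRHL2 and several claudins strongly and vimentin weakly, and SK-BR-3 is known to lack E-cadherin through a deletion of CDH1.

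No member passed the test in any comparison. A call needed a Benjamini-Hochberg adjusted p under 0.05 over all 17482 probe sets tested with limma and a fold change of at least 2. By it 0 of 27 members were called for TFPIα against empty vector, where 0.00572% of all probe sets (1) were called, 0 of 27 for TFPIβ against empty vector, where 0% were, and 0 of 27 for TFPIβ against TFPIα, where 0% were. At an unadjusted p under 0.05, without a fold limit, 1 of 27 members was higher (PKP2) and 0 lower for TFPIα against empty vector, where 14.2% of all probe sets passed (8.59% higher and 5.58% lower). For TFPIβ against empty vector 0 were higher and 1 lower (CLDN1), where 4.72% of all passed (2.49% higher and 2.23% lower). For TFPIβ against TFPIα 0 were higher and 1 lower (PKP2), where 8.63% of all passed (3.94% higher and 4.70% lower). With the replicate number as a block, the counts at that threshold were 1 higher and 3 lower for TFPIα (background 11.9% and 8.38%). They were 1 and 1 for TFPIβ (3.64% and 3.51%), and 2 and 2 between TFPIβ and TFPIα (6.19% and 9.21%). For TFPIα, PKP2 no longer passed (unadjusted p = 0.064, limma). The 1 higher member was GJB5, and the 3 lower were DSG3, JUP and CLDN1. Still 0 members passed the adjusted threshold.

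The members as a list moved little. Their median log2 fold change was -0.03 for TFPIα against empty vector, with 16 of 27 below 0, where the median of all probe sets was 0 and 50.0% lay below 0. For TFPIβ against empty vector it was -0.01 (14 of 27 below 0, 49.5% of all), and for TFPIβ against TFPIα it was 0.003 (13 of 27, 50.3% of all). Single members spread further, between -1.18 (CLDN1) and 0.47 (PKP2) for TFPIα and between -1.53 (CLDN1) and 0.68 (CDH1) for TFPIβ. CDH1 passed the filter only through replicate 2 of TFPIβ and of empty vector. The comparisons with empty vector share its 3 arrays, so their values are given side by side and not set against each other.

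**Figure D1:**
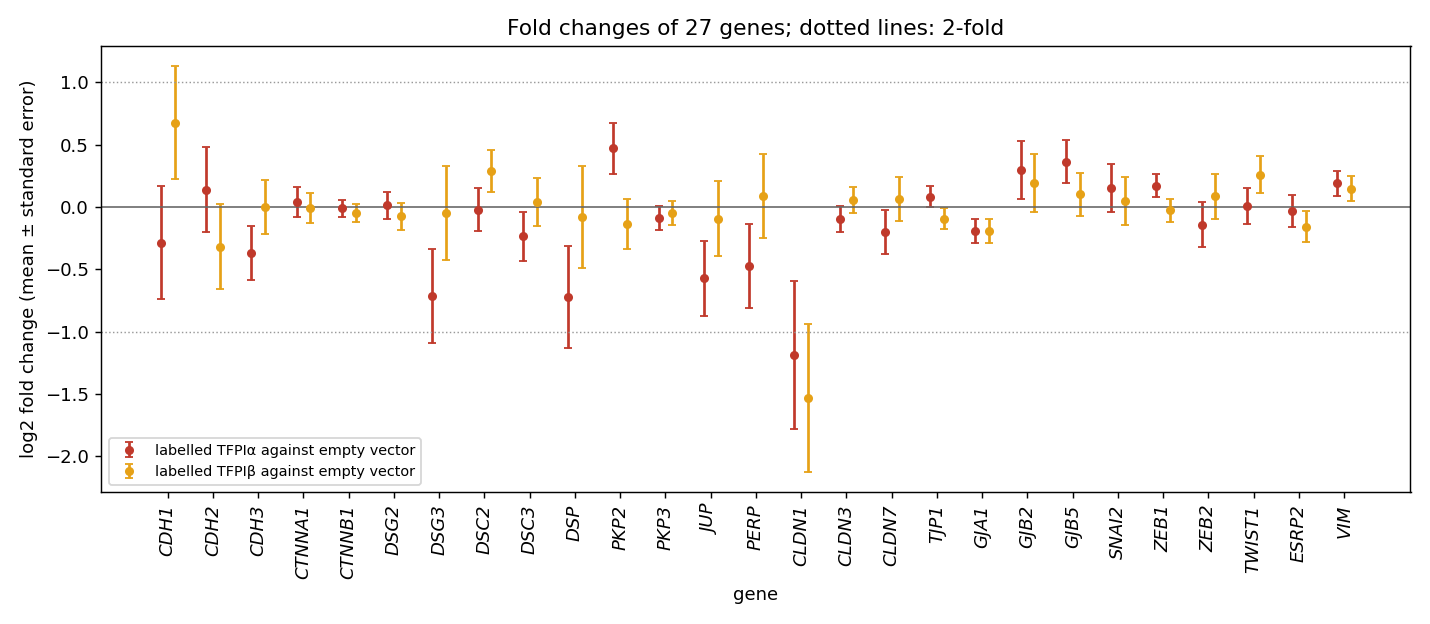
Log2 fold change with its standard error (y axis) for the 27 tested genes (x axis, ordered by structure), red for the arrays labelled TFPIα and yellow for those labelled TFPIβ, each against the 3 empty vector arrays; dotted lines mark 2-fold. CLDN1 lies lowest, at -1.18 and -1.53, and DSP, DSG3, JUP and PERP lie below 0 by more than 1 standard error for TFPIα only.

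Of the 5 tested adherens junction genes, the catenins had the smallest ranges over the 9 arrays. CTNNB1, which encodes β-catenin, gave 10.08, 10.08 and 10.05 on the TFPIα-labelled arrays, 10.09, 10.02 and 9.99 on the TFPIβ-labelled arrays, and 10.06, 10.11 and 10.06 on the empty vector arrays. Its range over 9 arrays, 0.12, was the smallest of all 27 members. CTNNA1, the α-catenin gene, gave 10.06, 9.82 and 9.73 on the arrays labelled TFPIα, 10.00, 9.82 and 9.65 on those labelled TFPIβ, and 9.86, 9.78 and 9.85 on those labelled empty vector. The groups overlapped for both genes.

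Of the listed CDH genes, only CDH3, the P-cadherin gene of basal epithelial cells, lay above 5 on all 9 arrays. It gave 7.98, 7.57 and 7.80 on the TFPIα-labelled arrays, 8.16, 8.51 and 7.79 on the TFPIβ-labelled arrays, and 7.95, 8.51 and 8.0 on the empty vector arrays (log2 fold change -0.37, SE 0.22, adjusted p = 0.437 for TFPIα; 0.003, SE 0.22, adjusted p = 1.00 for TFPIβ), and the first value was -0.19 without empty vector replicate 2. CDH1, the E-cadherin gene, lay under 5 on 7 of 9 arrays, with 4.58, 3.88 and 4.27 on those labelled TFPIα, 4.98, 6.18 and 4.46 on those labelled TFPIβ, and 4.15, 5.21 and 4.23 on those labelled empty vector. It entered the test through replicate 2 of TFPIβ and of empty vector only. Its log2 fold change was 0.68 (SE 0.45, adjusted p = 1.00) for TFPIβ against empty vector and 0.96 (SE 0.45, adjusted p = 0.532) for TFPIβ against TFPIα, and the TFPIβ replicates themselves spread over more than either difference. Without TFPIβ replicate 2 these values were 0.19 and 0.48, and the first was 1.05 without TFPIβ replicate 3 and 1.02 without empty vector replicate 2.

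CDH2, the N-cadherin gene that is often gained in EMT, lay under 5 on 8 of 9 arrays and entered the test through TFPIα replicate 1 alone. It gave 5.28, 4.30 and 4.0 on the TFPIα-labelled arrays, 4.55, 3.71 and 3.96 on the TFPIβ-labelled arrays, and 4.66, 4.25 and 4.25 on the empty vector arrays. The difference of TFPIβ from empty vector was -0.32 (SE 0.34, adjusted p = 1.00), and -0.55 without TFPIβ replicate 1, -0.14 without TFPIβ replicate 2 and -0.18 without empty vector replicate 1. CDH11, a mesenchymal cadherin gene, stayed at 3.86 to 4.77, and EPCAM at 2.56 to 2.92 on all 9 arrays, with TFPIα at 2.77, 2.71 and 2.77, TFPIβ at 2.92, 2.61 and 2.86, and empty vector at 2.89, 2.70 and 2.56. EPCAM encodes the adhesion molecule by which carcinoma cells are often captured.

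**Figure D2:**
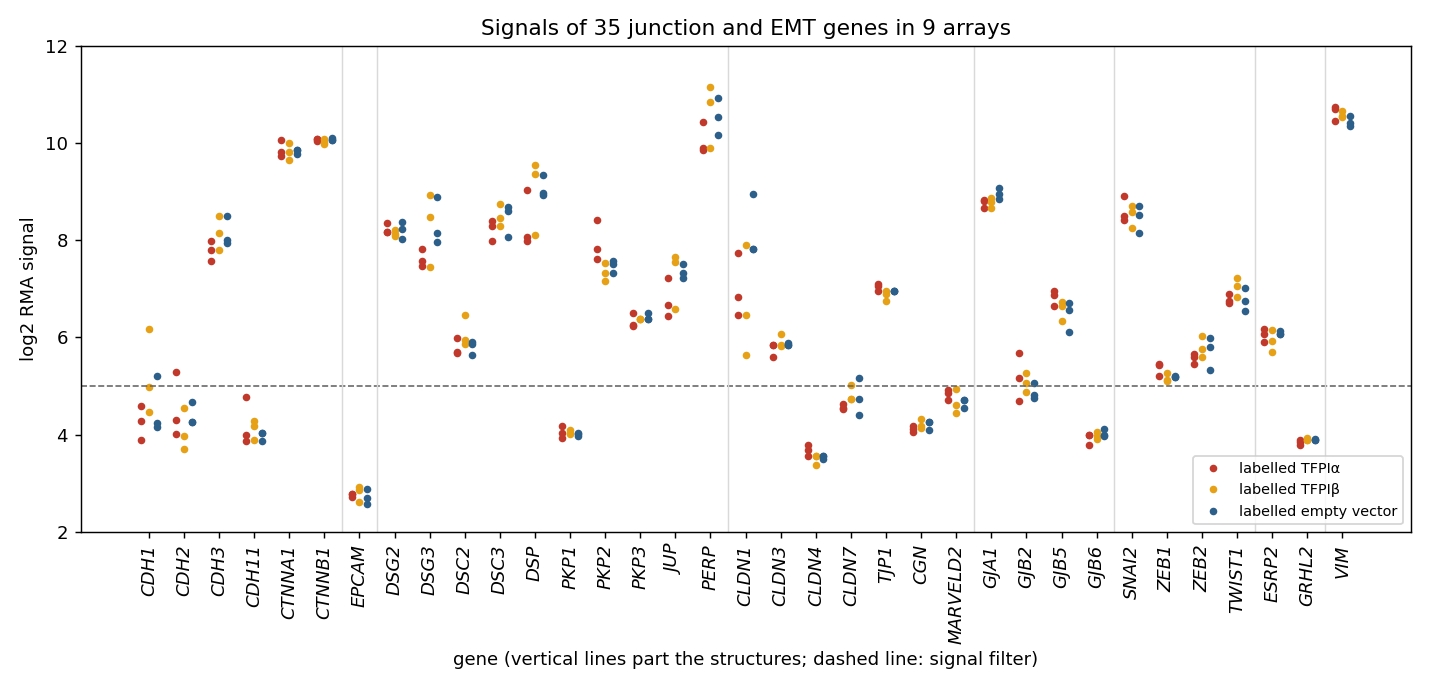
Log2 RMA signal (y axis) of the 35 genes with a value (x axis, grouped by structure), 1 point per array, red for TFPIα, yellow for TFPIβ and blue for empty vector by label; the dashed line is the signal filter at 5, and levels of different genes are not comparable since probe sets bind unequally. EPCAM, CLDN4, CGN, GRHL2, GJB6 and PKP1 lie under the line on every array, and PERP, VIM, CTNNB1 and CTNNA1 lie near or above 10.

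Among the 10 desmosomal genes, 9 were tested. Their median log2 fold change was -0.23 for TFPIα against empty vector, with 7 of 9 below 0 (50.0% of all probe sets), and -0.05 for TFPIβ, with 6 of 9 below 0 (49.5% of all). Below 0 for TFPIα were DSP, DSG3, JUP, PERP, DSC3, PKP3 and DSC2, and above 0 were DSG2 and PKP2. None was called.

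The promoter windows of DSP, DSG3, JUP and PERP, the 4 desmosomal genes that differed most below 0, and of CLDN1 further on, are shown as the DNA of genes described array by array; they were chosen after the values were seen. CDH1 and CDH3 have no entry in the table. Each window holds 300 bases, 250 before and 50 after a transcript start, from RefSeq on GRCh38.p14. Of 4 motifs searched on both strands, 2 are marked in capitals: the E-box CAGGTG (also read as CACCTG), the site bound by SNAI and ZEB factors, and TGANTCA, the AP-1 site. DSP encodes desmoplakin, the plaque protein that anchors keratin filaments, and its window (chr6:7541421-7541720, plus strand) holds 2 E-boxes, starting at -178 and -85:
DSP: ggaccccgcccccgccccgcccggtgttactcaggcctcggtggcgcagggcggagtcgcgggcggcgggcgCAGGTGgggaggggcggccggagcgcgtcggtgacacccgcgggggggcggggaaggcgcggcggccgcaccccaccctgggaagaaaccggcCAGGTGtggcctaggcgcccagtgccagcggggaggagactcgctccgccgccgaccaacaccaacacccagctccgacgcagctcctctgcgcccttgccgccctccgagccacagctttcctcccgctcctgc
DSG3 encodes a desmoglein of basal keratinocytes, and its window (chr18:31447491-31447790, plus strand) holds neither motif:
DSG3: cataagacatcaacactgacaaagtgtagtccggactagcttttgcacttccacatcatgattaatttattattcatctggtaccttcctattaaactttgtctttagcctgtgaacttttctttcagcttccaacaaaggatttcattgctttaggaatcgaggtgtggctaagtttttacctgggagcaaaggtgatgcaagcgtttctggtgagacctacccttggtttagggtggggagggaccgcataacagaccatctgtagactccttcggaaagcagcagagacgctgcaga
JUP encodes plakoglobin, the plaque catenin of desmosomes, which adherens junctions share. The second of its 2 windows (chr17:41785927-41786226, minus strand) holds 2 E-boxes, starting at -54 and -43, and the first holds none:
JUP: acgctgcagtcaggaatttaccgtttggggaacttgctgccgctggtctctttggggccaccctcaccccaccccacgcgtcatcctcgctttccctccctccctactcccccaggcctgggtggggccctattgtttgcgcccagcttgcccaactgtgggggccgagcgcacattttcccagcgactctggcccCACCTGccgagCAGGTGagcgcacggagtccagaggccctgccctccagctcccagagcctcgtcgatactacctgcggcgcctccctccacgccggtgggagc
PERP encodes a membrane protein of desmosomes that is a target of p53 and p63, and its window (chr6:138107370-138107669, minus strand) holds 1 AP-1 site, starting at -101:
PERP: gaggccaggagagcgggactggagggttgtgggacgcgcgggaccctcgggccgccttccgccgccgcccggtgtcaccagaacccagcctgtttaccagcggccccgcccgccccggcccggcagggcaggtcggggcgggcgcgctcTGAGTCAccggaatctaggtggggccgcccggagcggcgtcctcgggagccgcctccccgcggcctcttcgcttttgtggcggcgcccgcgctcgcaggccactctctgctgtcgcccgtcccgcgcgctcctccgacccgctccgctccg
By gene, the E-box lay in windows of 10 of the 25 members with a window (40%), against 24.1% of 27305 genes in the table. By window it lay in 12 of the members' 42 (28.6%), against 20.6% of all 35116. TGANTCA lay in 4 of 25 members (16%), against 9.37% of genes, and in 4 of 42 windows (9.52%), against 7.71%. The third motif, AACCGGTT, the site of Grainyhead factors, lay in 0 of 25 members, against 0.165% of genes and 0.134% of windows. The last, the p53-family half-site, lay in 4 of 25 members (16%), against 8.06% of genes, and in 5 of 42 windows (11.9%), against 6.63%. Some genes have several windows, and each added window raises the share counted by gene. No marked matches overlap. A match is only a string of letters, and the arrays did not measure binding.

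DSP gave 9.03, 7.99 and 8.07 on the arrays labelled TFPIα, 9.36, 9.55 and 8.11 on those labelled TFPIβ, and 8.98, 9.35 and 8.94 on those labelled empty vector. TFPIα replicates 2 and 3 and TFPIβ replicate 3 were low, and the other 6 arrays, TFPIα replicate 1 among them, were high, so that the groups overlapped. The log2 fold change was -0.72 (SE 0.41, adjusted p = 0.421) for TFPIα and -0.08 (SE 0.41, adjusted p = 1.00) for TFPIβ. Between arrays of the same number, TFPIα differed from empty vector by 0.06, -1.36 and -0.86.

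JUP followed the same arrays, with 7.22, 6.67 and 6.44 on those labelled TFPIα, 7.54, 7.65 and 6.59 on those labelled TFPIβ, and 7.33, 7.50 and 7.22 on those labelled empty vector. All 3 TFPIα values lay below the empty vector values, but the highest of them, 7.22, met the lowest empty vector value. The difference of means was -0.57 (SE 0.30, adjusted p = 0.396) for TFPIα and -0.09 (SE 0.30, adjusted p = 1.00) for TFPIβ.

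PERP gave 10.44, 9.90 and 9.86 on the TFPIα-labelled arrays, 10.85, 11.15 and 9.89 on the TFPIβ-labelled arrays, and 10.55, 10.92 and 10.16 on the empty vector arrays. Again TFPIα replicates 2 and 3 and TFPIβ replicate 3 were lowest, with empty vector replicate 3 next. The log2 fold change was -0.47 (SE 0.34, adjusted p = 0.514) for TFPIα and 0.09 (SE 0.34, adjusted p = 1.00) for TFPIβ, and the first was -0.28 without empty vector replicate 2.

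DSG3 gave 7.83, 7.57 and 7.47 on the arrays labelled TFPIα, 8.47, 8.94 and 7.44 on those labelled TFPIβ, and 7.97, 8.89 and 8.14 on those labelled empty vector. The TFPIα values lay below all empty vector values, and the TFPIβ values spanned both groups. TFPIα differed by -0.71 (SE 0.38, adjusted p = 0.402) and TFPIβ by -0.05 (SE 0.38, adjusted p = 1.00) on the log2 scale. Between arrays of the same number TFPIα differed from empty vector by -0.15, -1.33 and -0.67, and without empty vector replicate 2 the log2 fold change for TFPIα was -0.44.

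PKP2, a plakophilin gene, had the highest log2 fold change of the 27 members for TFPIα. It gave 7.60, 8.41 and 7.82 on the TFPIα-labelled arrays, 7.33, 7.15 and 7.53 on the TFPIβ-labelled arrays, and 7.58, 7.52 and 7.33 on the empty vector arrays. The TFPIα values lay above all others, with replicate 2 far above. The log2 fold change was 0.47 (SE 0.20, unadjusted p = 0.047, adjusted p = 0.350, limma) for TFPIα against empty vector, -0.14 (SE 0.20, adjusted p = 1.00) for TFPIβ against empty vector, and -0.61 (SE 0.20, unadjusted p = 0.016, adjusted p = 0.532, limma) for TFPIβ against TFPIα. Without TFPIα replicate 2 the first was 0.24 and the last -0.37. With the replicate number as a block the unadjusted p was 0.064 for the first and 0.026 for the last (limma).

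The other desmosomal genes varied less. DSC2, a desmocollin gene, gave 5.69, 5.68 and 5.98 on the arrays labelled TFPIα, 5.95, 6.46 and 5.87 on those labelled TFPIβ, and 5.64, 5.90 and 5.87 on those labelled empty vector (log2 fold change 0.29, SE 0.17, adjusted p = 1.00 for TFPIβ, and 0.10 without TFPIβ replicate 2). DSC3, the desmocollin gene of basal cells, lay between 7.98 and 8.74, DSG2, the widespread desmoglein gene, between 8.04 and 8.38, and PKP3 between 6.23 and 6.50. PKP3 held a single value on 4 of 9 arrays, which limits what its differences can show. PKP1, a plakophilin gene of stratified epithelia, stayed at 3.94 to 4.18.

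**Figure D3:**
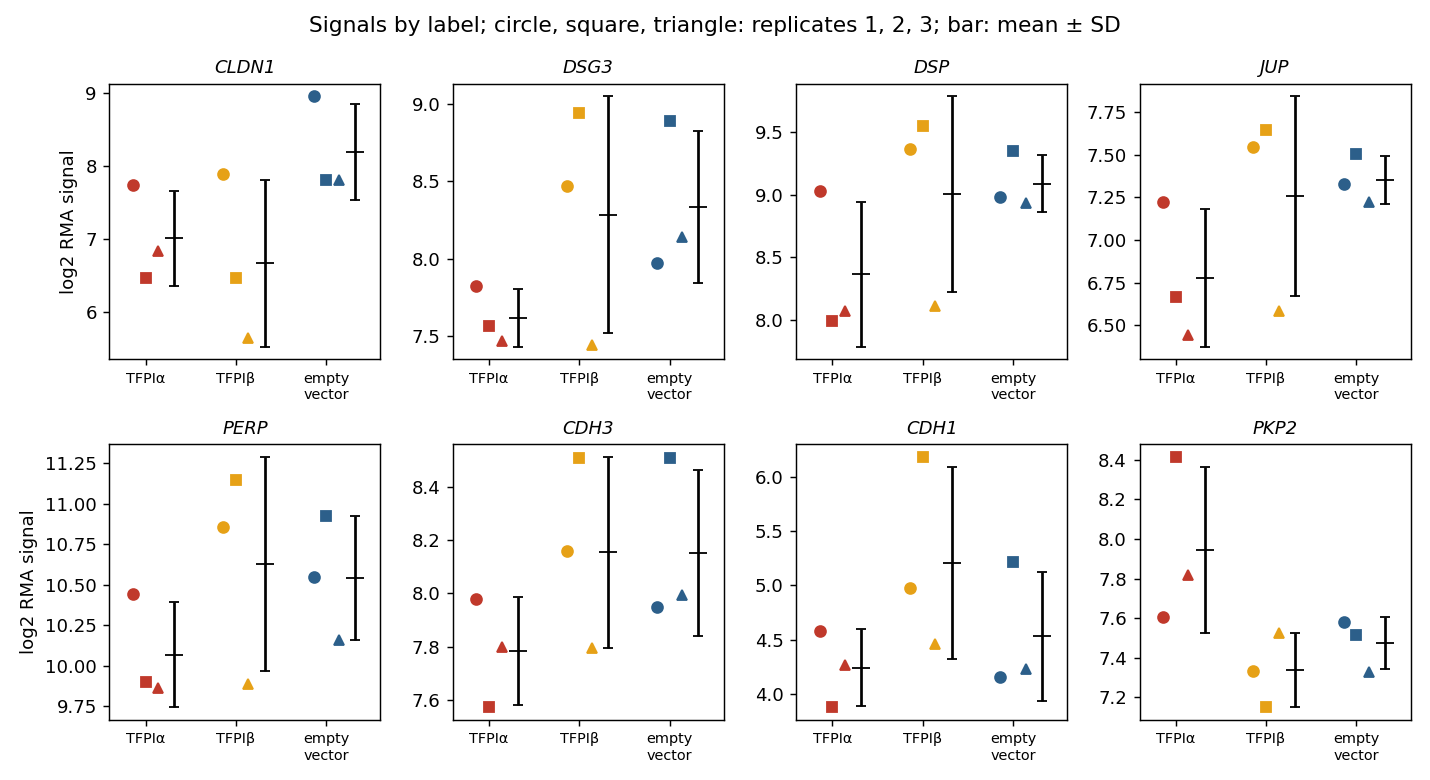
Log2 RMA signal (y axis, a separate scale in each panel) of 8 genes on each array, grouped by label (x axis); circles, squares and triangles are replicates 1, 2 and 3, and the bar beside them is the mean with the SD of 3 arrays. In DSP, JUP and PERP the low points are TFPIα squares and triangles and the TFPIβ triangle, while CLDN1 is high in the circles of every group.

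Among the tight junction genes, CLDN1 had the widest range of all 27 members, 3.32 over 9 arrays, against a median range of 0.76 over the members and 0.59 over all probe sets tested. CLDN1 encodes claudin-1, a barrier-forming claudin that is typical of basal-like rather than luminal breast cells. Its promoter window (chr3:190322397-190322696, minus strand) holds neither motif:
CLDN1: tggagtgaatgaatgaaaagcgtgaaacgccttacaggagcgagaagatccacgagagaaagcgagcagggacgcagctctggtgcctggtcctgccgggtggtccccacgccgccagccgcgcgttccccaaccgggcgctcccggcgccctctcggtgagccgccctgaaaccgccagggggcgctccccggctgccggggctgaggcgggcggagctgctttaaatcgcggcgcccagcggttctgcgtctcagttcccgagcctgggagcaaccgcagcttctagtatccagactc
CLDN1 gave 7.74, 6.47 and 6.84 on the arrays labelled TFPIα, 7.90, 6.47 and 5.64 on those labelled TFPIβ, and 8.96, 7.82 and 7.81 on those labelled empty vector. Every TFPIα value lay below every empty vector value, while TFPIβ replicate 1 lay above empty vector replicates 2 and 3. The log2 fold change was -1.18 (SE 0.59, unadjusted p = 0.080, adjusted p = 0.385, limma) for TFPIα and -1.53 (SE 0.59, unadjusted p = 0.032, adjusted p = 1.00, limma) for TFPIβ, and -0.35 (SE 0.59, adjusted p = 0.820) between TFPIβ and TFPIα.

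CLDN1 also differed by replicate number. Replicate 1 was the highest array of each group, and the deviations from the group means averaged 0.90, -0.38 and -0.53 for numbers 1, 2 and 3 (unadjusted p = 0.002, adjusted p = 0.188, limma F test). Between arrays of the same number, TFPIα differed from empty vector by -1.22, -1.35 and -0.97, and TFPIβ by -1.06, -1.35 and -2.17. All 6 differences were below 0, but both sets subtract the same empty vector arrays and are not separate results. With the replicate number as a block the unadjusted p was 0.003 for TFPIα (adjusted p = 0.183, limma) and 0.000697 for TFPIβ (adjusted p = 0.363, limma), which still did not pass over all probe sets. Without 1 array at a time the log2 fold change was -1.54 to -0.80 for TFPIα and -2.14 to -1.02 for TFPIβ, the last without TFPIβ replicate 3.

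The remaining tight junction genes were dim or steady. TJP1, which encodes the scaffold protein ZO-1, gave 6.96, 7.09 and 7.06 on the TFPIα-labelled arrays, 6.96, 6.75 and 6.88 on the TFPIβ-labelled arrays, and 6.96 on each of the empty vector arrays. TJP1 and CLDN3 each held a single value on 5 of 9 arrays. CLDN3, a claudin gene that luminal cells express, lay between 5.60 and 6.08, and CLDN7, another, lay under 5 on 7 of 9 arrays, with a highest signal of 5.15. CLDN4, CGN, which encodes cingulin, and MARVELD2, which encodes tricellulin, stayed at 3.37 to 3.79, 4.05 to 4.33 and 4.44 to 4.94. The CLDN7 signals of the TFPIβ-labelled arrays lay above those of the TFPIα-labelled arrays (log2 fold change 0.27, SE 0.18, adjusted p = 0.568). Of these arrays only TFPIβ replicate 1 lay above 5.

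None of the tested gap junction genes was called. GJA1, a widespread connexin gene, gave 8.81, 8.67 and 8.83 on the arrays labelled TFPIα, 8.86, 8.79 and 8.67 on those labelled TFPIβ, and 8.85, 8.95 and 9.08 on those labelled empty vector. Its log2 fold change was -0.19 (SE 0.10, adjusted p = 0.385) for TFPIα and -0.19 (SE 0.10, adjusted p = 1.00) for TFPIβ. GJB5, a connexin gene of skin and placenta, gave 6.96, 6.65 and 6.88 on the TFPIα-labelled arrays, 6.65, 6.72 and 6.34 on the TFPIβ-labelled arrays, and 6.71, 6.56 and 6.12 on the empty vector arrays (log2 fold change 0.36, SE 0.17, adjusted p = 0.371 for TFPIα, and 0.19 without empty vector replicate 3). With the replicate number as a block the unadjusted p of GJB5 for TFPIα was 0.043 (adjusted p = 0.236, limma). GJB2, a connexin gene of skin and cochlea, lay between 4.68 and 5.67, and GJB6 stayed at 3.79 to 4.12.

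The 4 EMT factors lay above 5 on every array, and for each of them the 3 groups overlapped. SNAI2, which encodes SLUG, gave 8.49, 8.42 and 8.91 on the TFPIα-labelled arrays, 8.57, 8.70 and 8.25 on the TFPIβ-labelled arrays, and 8.51, 8.71 and 8.15 on the empty vector arrays. TWIST1 gave 6.70, 6.90 and 6.75 on the arrays labelled TFPIα, 6.82, 7.22 and 7.05 on those labelled TFPIβ, and 6.55, 7.02 and 6.74 on those labelled empty vector. Its TFPIβ value lay 0.27, 0.20 and 0.31 above that of empty vector at the same numbers (log2 fold change 0.26, SE 0.15, adjusted p = 1.00; adjusted p = 0.610 with the replicate block, limma).

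ZEB1 lay just above the filter, with 5.20, 5.45 and 5.44 on the TFPIα-labelled arrays, 5.10, 5.13 and 5.26 on the TFPIβ-labelled arrays, and 5.18, 5.19 and 5.20 on the empty vector arrays. For TFPIα it differed by 0.17 (SE 0.09, adjusted p = 0.412) and for TFPIβ by -0.03 (SE 0.09, adjusted p = 1.00), and its range over 9 arrays was 0.35. ZEB2 lay between 5.32 and 6.02. Of the epithelial regulators, GRHL2 stayed at 3.79 to 3.93, and ESRP2 gave 5.91, 6.08 and 6.17 on the TFPIα-labelled arrays, 5.93, 5.69 and 6.16 on the TFPIβ-labelled arrays, and 6.12, 6.06 and 6.06 on the empty vector arrays.

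VIM, which encodes the mesenchymal filament protein vimentin, was bright on every array. It gave 10.45, 10.74 and 10.69 on the arrays labelled TFPIα, 10.54, 10.66 and 10.55 on those labelled TFPIβ, and 10.42, 10.55 and 10.34 on those labelled empty vector. The log2 fold change was 0.19 (SE 0.10, adjusted p = 0.410) for TFPIα and 0.15 (SE 0.10, adjusted p = 1.00) for TFPIβ. VIM and SNAI2 lay above 5, and EPCAM and GRHL2 under it, on every array of all 3 groups. For VIM, EPCAM and GRHL2 this differs from the pattern given above for luminal breast lines. The claudins other than CLDN1 were mixed. CLDN3 lay above 5 and CLDN4 under it on all 9 arrays, and CLDN7 lay under 5 on 7 of 9. The identity of the cells was not tested.

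Few members had groups that did not overlap. For TFPIα against empty vector 1 member was higher on every TFPIα-labelled array (PKP2) and 4 were lower (DSG3, JUP, CLDN1 and GJA1), of 27, where 14.4% of all probe sets were higher and 8.85% lower in this way. For TFPIβ against empty vector 0 members were (3.43% and 3.74% of all), and between TFPIβ and TFPIα 1 was higher (CLDN7) and 1 lower (PKP2), against 6.15% and 7.10%. CLDN7 passed the filter only through TFPIβ replicate 1 and empty vector replicate 3. It lay under 5 on every TFPIα-labelled array and held a single value on 3 of 9 arrays, so its place in this count carries little weight.

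Of the 27 members 8 had a range of at least 1 over the 9 arrays and 10 had one under 0.5. In the test of replicate number 0 members passed the adjusted threshold (lowest adjusted p = 0.188, limma), as did 0% of all probe sets, and 5 of 27 (18.5%) had an unadjusted p under 0.05, against 16.0% of all. These were CLDN1, CDH2, TWIST1, PERP and JUP. CDH2 passed the filter only through TFPIα replicate 1, and number 1 was also its highest in every group. Its place in this count therefore carries little weight.

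**Figure D4:**
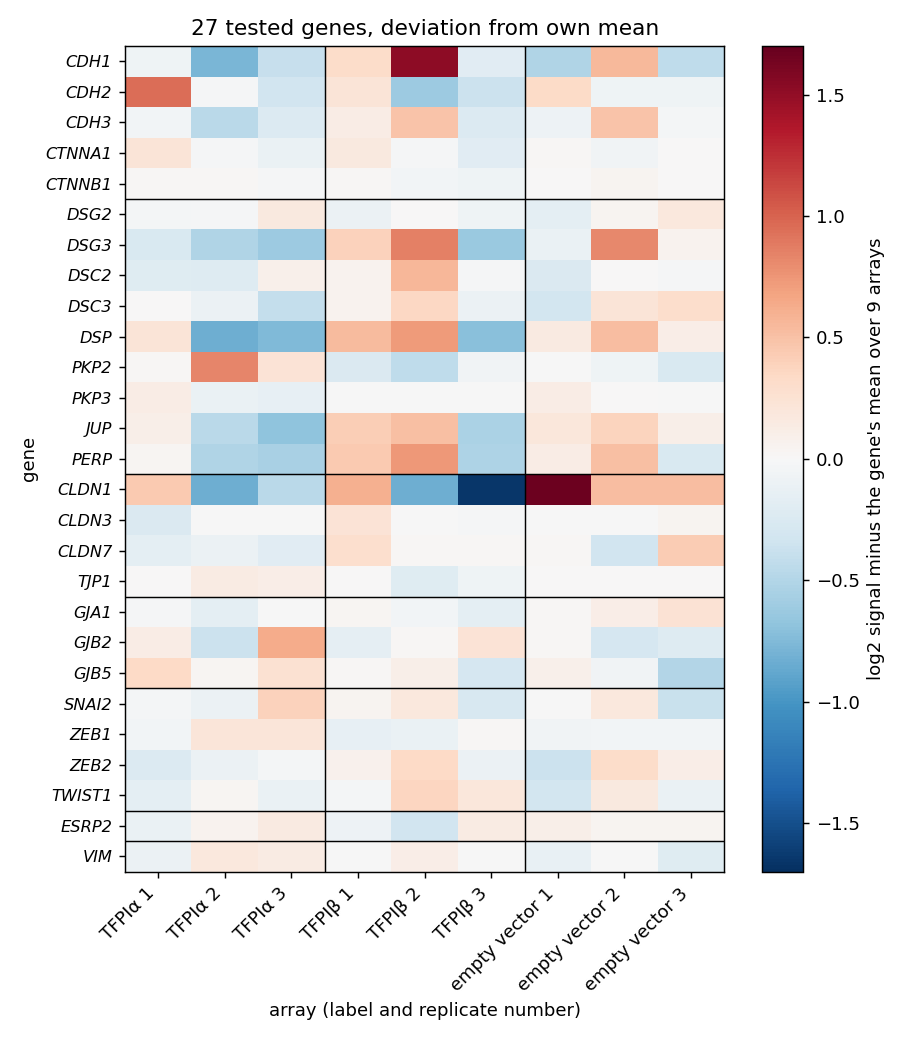
Deviation of each log2 signal from the gene's own mean over 9 arrays (colour, red higher and blue lower) for the 27 tested genes (rows, black lines between structures) on the arrays by label and replicate number (columns). DSG3, DSP, JUP and PERP are blue together on TFPIα 2, TFPIα 3 and TFPIβ 3, and CLDN1 is lowest on TFPIβ 3.

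Some members moved together within the groups. With the group means removed, the Pearson correlation over the 9 arrays, which share 1 normalization, had a median of 0.09 over the 351 pairs of tested members and lay between -0.90 and 0.98. Of these pairs 17 had a correlation of at least 0.8. The same share over all probe sets is not given, so this count does not set the members apart. CDH3, DSG3, DSP, JUP and PERP, a set picked after the values were seen, held 9 of its 10 pairs at 0.8 or more, with a range of 0.76 to 0.98. CDH1 correlated with CDH3 at 0.97, with DSG3 at 0.91 and with PERP at 0.84. It lay under 5 on 7 of the 9 arrays, all but replicate 2 of TFPIβ and of empty vector, so these values rest mostly on signals below the filter. ZEB1 correlated with DSP at -0.88, with JUP at -0.85 and with CTNNA1 at -0.90, over a ZEB1 range of 0.35, and ESRP2 correlated with DSP at -0.89 and with JUP at -0.90. The other EMT factors did not share this sign, as SNAI2 correlated with DSP at 0.41, ZEB2 at 0.34 and TWIST1 at 0.02, and VIM correlated with it at -0.18. These are descriptions of 9 arrays with no test.

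The whole basal list was set beside DSP in the same way. Of its 6 tested genes, 5 correlated with DSP at 0.78 (ITGB4) to 0.98 (KRT5) and LAMB3, a laminin chain gene, at -0.46. The genes named here were chosen after their values were seen. KRT15, a keratin gene of basal cells, gave 10.02, 6.60 and 6.19 on the TFPIα-labelled arrays, 10.48, 10.39 and 6.20 on the TFPIβ-labelled arrays, and 9.98, 10.04 and 8.29 on the empty vector arrays. With the group means removed it correlated with DSP at 0.96, with JUP at 0.97, with PERP at 0.92 and with ZEB1 at -0.91. FN1, the fibronectin gene that is often gained in EMT, gave 7.55, 9.34 and 10.42 on the arrays labelled TFPIα, 7.56, 7.10 and 9.39 on those labelled TFPIβ, and 6.73, 7.02 and 8.66 on those labelled empty vector, and correlated with DSP at -0.84 and with JUP at -0.89. The mesenchymal list as a whole had no common sign, with 9 of 19 tested genes above 0 against DSP and 10 below, a median of -0.03 and a range of -0.84 to 0.93. AXL (0.93), MMP14 (0.86) and CALD1 (0.83) ran with DSP, and FN1 and NT5E (-0.84) against it. The part of this difference among arrays in the fold changes of the desmosomal genes was not tested.

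**Figure D5:**
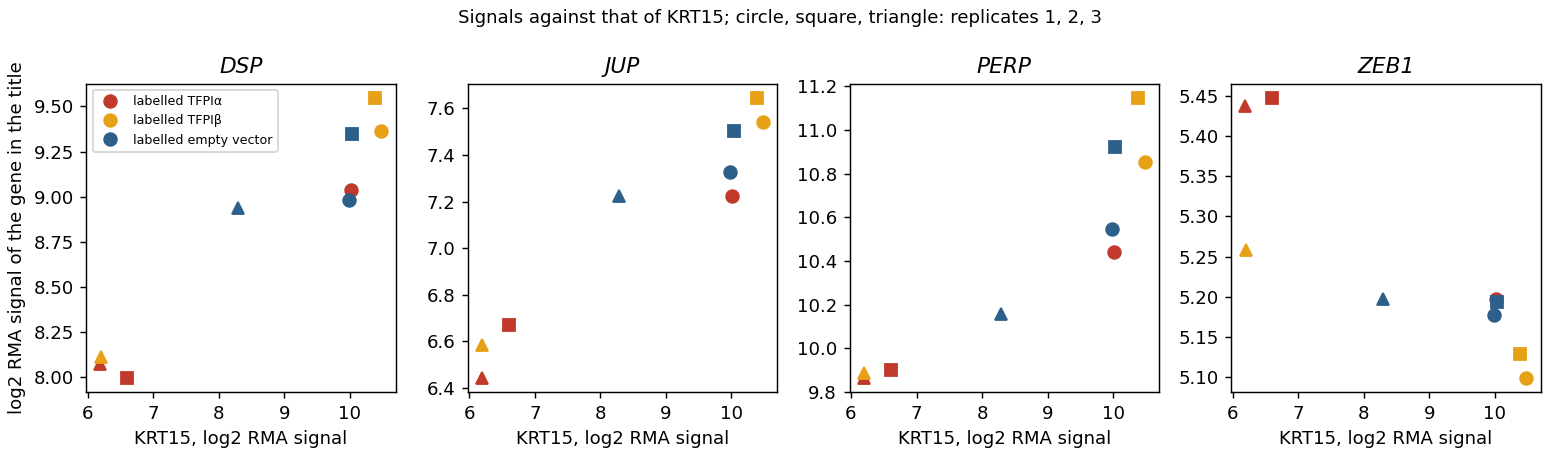
Log2 RMA signal of DSP, JUP, PERP and ZEB1 (y axes, a separate scale in each panel) against that of KRT15 (x axis) on 9 arrays, coloured by label, with circles, squares and triangles for replicates 1, 2 and 3. TFPIα 2, TFPIα 3 and TFPIβ 3 lie at a KRT15 signal of 6.19 to 6.60 with low DSP, JUP and PERP, and the other arrays at 8.29 or more.

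Further genes of the same structures, from lists that exclude the 39, gave 0 called genes in each comparison. Their counts at an unadjusted p under 0.05 stand beside 8.59% higher and 5.58% lower of all probe sets for TFPIα, 2.49% and 2.23% for TFPIβ, and 3.94% and 4.70% for TFPIβ against TFPIα. Of 9 tested adherens junction genes, 3 were higher and 0 lower for TFPIα at an unadjusted p under 0.05, and 1 was higher and 1 lower for TFPIβ. CTNNAL1, an α-catenin-like gene, gave 7.40, 7.20 and 7.58 on the TFPIα-labelled arrays, 7.04, 6.78 and 7.42 on the TFPIβ-labelled arrays, and 6.81, 6.29 and 6.46 on the empty vector arrays (log2 fold change 0.88, SE 0.20, adjusted p = 0.335 for TFPIα; 0.56, SE 0.20, adjusted p = 1.00 for TFPIβ, limma). CDH6, a cadherin gene of the kidney, had a log2 fold change of 1.08 (SE 0.36, adjusted p = 0.335, limma) for TFPIα. Of 5 desmosomal genes 0 were higher and 1 lower for TFPIα (PPP1R13L, log2 fold change -0.30, SE 0.12, adjusted p = 0.345, limma), and 0 passed for TFPIβ.

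Of 20 tight junction genes 0 were higher and 1 lower for TFPIα. This was CXADR, a junctional virus receptor gene, with 7.60, 7.14 and 6.95 on the TFPIα-labelled arrays, 7.96, 7.67 and 7.11 on the TFPIβ-labelled arrays, and 8.12, 7.83 and 7.73 on the empty vector arrays (log2 fold change -0.66, SE 0.24, adjusted p = 0.338, limma). Of 8 gap junction genes 1 was higher and 0 lower for TFPIα, namely GJC1 (0.21, SE 0.09, adjusted p = 0.349, limma). For TFPIβ 0 tight junction and 0 gap junction genes had an unadjusted p under 0.05.

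Of 16 further EMT and epithelial transcription factors, 0 were higher and 1 lower for TFPIα, and 1 was higher and 0 lower for TFPIβ. EHF, an ETS factor gene of epithelia, gave 5.80, 4.27 and 4.18 on the arrays labelled TFPIα, 5.70, 6.02 and 5.04 on those labelled TFPIβ, and 6.02, 6.46 and 6.31 on those labelled empty vector (log2 fold change -1.51, SE 0.43, adjusted p = 0.335 for TFPIα, limma). Its TFPIα values lay below all empty vector values, and 2 of them lay under the filter. TCF4, an E-box factor gene, had a log2 fold change of 0.71 (SE 0.26, adjusted p = 1.00, limma) for TFPIβ. Of 19 mesenchymal state genes, which CDH6 is also among, 1 was higher and 1 lower for TFPIα, and 1 was higher and 0 lower for TFPIβ. MMP14, a membrane-bound matrix protease gene, had -0.64 (SE 0.22, adjusted p = 0.335, limma) for TFPIα, and S100A4 had 0.70 (SE 0.29, adjusted p = 1.00, limma) for TFPIβ. Between TFPIβ and TFPIα, at the same unadjusted threshold, 0 and 1 adherens junction genes, 1 and 0 desmosomal genes, 0 and 1 transcription factors and 1 and 0 mesenchymal state genes were higher and lower, and 0 tight or gap junction genes.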

How the data were processed

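Affymetrix Human Gene 1.0 ST arrays, 9 in all and 3 for each label, measured RNA that the labels give as coming from SK-BR-3. The authors made the deposited log2 signals with RMA in Partek, both named in the submitters' processing notes with no version given in the sources used here. No source gives the log base, which was taken as 2 from the values' range. The labels give puromycin and the study's methods neomycin as the selecting drug. Of 33297 probe sets, 19460 have 1 gene symbol, 1754 several and 12083 none. Symbols were updated through Entrez IDs to RefSeq.

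Probe sets with a highest log2 signal under 5 were left out, which kept 17482. One limma 3.58.1 model in R 4.3.3 (lmFit, then eBayes) held the 9 arrays with the label as its only term. The thresholds for a call were 0.05 for p after Benjamini-Hochberg adjustment and 2 for the fold. The methods' plain 1-way model was an alternative. No exact permutation test was used, since 3 arrays against 3 allow no p below 0.1. The fit was tested on simulated data first. The precision is limited by the number of arrays.

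The members, lists and tests were chosen with earlier results of these data known. All 39 members are named. Values per array are given for the members with the 4 largest absolute fold changes against empty vector or an unadjusted p under 0.05, for the brightest 2 of each structure, and for CDH1, EPCAM, VIM, ZEB1 and SNAI2, and, after their values were seen, for CDH3. Up to 2 genes of each further list with an unadjusted p under 0.05 are named.

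The labels give each array a number from 1 to 3. Between groups, deviations from the group means correlated at 0.137 to 0.594 over 9 same-number pairs and at -0.512 to 0.266 over 18 others. Every same-number pair was over 0.1, so the numbers were taken to pair the arrays, and each comparison was repeated with the number as a block. The other alternatives are given in the closing section. Motifs were searched and figures drawn in Python 3.11.15 with matplotlib 3.10.9.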

Additional observations from a re-analysis of the deposited data

How the results depend on the processing

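Sensitivity was run for 14 fold changes of 11 members (CLDN1, DSP, DSG3, JUP, PERP, CDH3, PKP2, GJB5, CDH1, CDH2 and DSC2) and not for the others. These kept their direction and their side of the threshold in all 235 values, with a lowest adjusted p = 0.145. The members' counts and medians made up 112 values over 7 results. The counts stayed at 0 in all of them. The medians moved by less than 0.19, the SD of the members' median between arrays of a group, but did not keep their direction. They lay between -0.10 and 0.004 for TFPIα, -0.07 and 0.11 for TFPIβ, and -0.03 and 0.06 for TFPIβ against TFPIα. The count of called transcripts for TFPIα against empty vector was 1, and 0 with the replicate block, with a fit to the 2 compared groups alone, without variance moderation, without the signal filter and with arrays centred on their medians. Leaving out 1 array at a time it was 0 to 4, with 4 without TFPIα replicate 3, 1 without empty vector replicate 3 and 0 without any other. For TFPIβ against TFPIα it was 0, and 1 with the replicate block. Transcripts that differed by replicate number were 0, and 2 without the signal filter. The cause of these changes was not tested. With the replicate block 0 members were called in each comparison, as without it, and it changed no other call.

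With 3 arrays per group, small differences are not detectable over 17482 probe sets, and larger ones also went uncalled. CLDN1 for TFPIβ and EHF for TFPIα, at log2 fold changes of -1.53 and -1.51 against empty vector, were among these. The absence of calls among the members thus does not exclude changes of that size. CDH1, CDH2 and CLDN7 passed the filter through 1 or 2 arrays only. Label and line cannot be told apart, since each group is one selected population, and the replicates measure isolations of it.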
